A study of Mus musculus with 6 samples.

Results

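Neurotrophins are secreted growth factors first known from neurons. Brain-derived neurotrophic factor (Bdnf) binds the receptor tyrosine kinase TrkB (Ntrk2), neurotrophin-3 (Ntf3) binds mainly TrkC (Ntrk3), and all neurotrophins can bind the p75 receptor (Ngfr), a member of the tumour necrosis factor receptor family. Sortilin (Sort1) is a sorting receptor that binds proneurotrophins and works with p75 at the cell surface. In the kidney, BDNF and TrkB have been reported in podocytes. These 6 genes, out of 54838 gene rows in each library, are described here, and all 6 passed the filter on low counts that left 17086 genes. They were chosen by symbol with earlier differences between the 2 groups of these libraries in view, among them that of Ntrk2. The group differences of the 6 genes are therefore given as descriptions, with standard errors and without p-values.

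RNA was sequenced from glomeruli, the filtering units of the kidney, isolated from 3-week-old mice. The 3 CTRL-labelled libraries (animals 157, 162 and 163) carry the genotype wild type, and the 3 labelled KO (animals 146, 147 and 148) carry bPIX -/-, in a series whose title limits the loss of bPIX to podocytes. bPIX is the product of Arhgef7, an exchange factor for small GTPases, and podocytes are the epithelial cells that wrap the glomerular capillaries. The sources used here do not give the Cre driver, the exon removed, the sex of the animals, or the alleles of the controls beyond the words wild type. Each library is 1 mouse, so n counts animals.

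File names and sample labels disagree: all 3 files of CTRL samples are named after KO animals, and all 3 files of KO samples after CTRL animals. Groups here follow the sample labels. Were the file names correct instead, each difference below would turn its sign and keep its size, and each rank or count of genes above another would run from the other end. The targeted gene does not settle this, since Arhgef7 stood at 91.5 ± 2.83 CPM in the CTRL-labelled libraries and 103 ± 26.1 CPM in the KO-labelled ones (SD, n = 3 each), and podocytes are 1 of several cell types that express it. CPM is a read count scaled by TMM library size.

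Gene counts ran from 39841396 to 51917945 per library. The means of the glomerular marker lists were higher and that of the proximal tubule list lower in the libraries labelled KO. The mean of 26 podocyte markers spanned 5.03 to 5.30 log2 CPM for CTRL-labelled libraries, while KO 146, 147 and 148 gave 7.77, 6.59 and 6.11. That of 22 endothelial markers was 5.04 to 5.20 against 7.48, 6.41 and 5.80, and that of 20 mesangial and smooth muscle markers 4.13 to 4.22 against 6.78, 5.43 and 4.93. The mean of 30 proximal tubule markers was 9.60 to 9.68 against 8.62, 9.13 and 9.31. Proximal tubule markers were thus abundant in RNA labelled as glomerular, with a summed level of 45849 to 47646 CPM in the CTRL-labelled and 21973 to 36481 CPM in the KO-labelled libraries, beside 1804 to 2100 and 3616 to 11621 CPM for the podocyte list. Some other lists moved with the groups too, while the 14 macrophage and leukocyte markers had a median fold change of 0.08 and 0 genes without overlap. Of 24 cell cycle genes 23 had positive fold changes and 17 were called higher by edgeR, beside 0.591% of all tested genes. This list, like the others, was chosen with earlier results of these data known. Its summed levels were 172 to 196 CPM in the CTRL-labelled and 366 to 392 CPM in the KO-labelled libraries. Of 9 fibroblast markers tested 8 were positive, beside 8419 of all 17086 tested genes. Their list means were 2.43 to 2.75 against 3.30, 3.47 and 3.23 log2 CPM. Pi16 is in both this list and the endothelial one. KO 146 stood apart on the first principal component, at 82.7 against -42.3 to 26.1 for the other libraries. In bulk RNA, more cells of a type and more RNA per cell cannot be told apart. The part of this difference in each value below was not tested beyond the comparisons given.

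Promoter windows from RefSeq (GRCm38.p6) were available for 4 of the 6 genes, Ntrk2, Ngfr, Bdnf and Ntf3. Those of Ntrk2 and Bdnf are printed because the KO-labelled libraries were the higher group for the receptor and the lower group for its ligand. Each window runs 5′ to 3′ from 250 bases before to 50 bases after a transcript start. The Ntrk2 window is chr13:58806319-58806618 on the plus strand. The Bdnf window is chr2:109674450-109674749 on the plus strand, the first of 7 Bdnf start windows in the table, whose transcripts are all pooled in the gene count. Capitals mark the GC box, of which the Bdnf window has none.
Ntrk2: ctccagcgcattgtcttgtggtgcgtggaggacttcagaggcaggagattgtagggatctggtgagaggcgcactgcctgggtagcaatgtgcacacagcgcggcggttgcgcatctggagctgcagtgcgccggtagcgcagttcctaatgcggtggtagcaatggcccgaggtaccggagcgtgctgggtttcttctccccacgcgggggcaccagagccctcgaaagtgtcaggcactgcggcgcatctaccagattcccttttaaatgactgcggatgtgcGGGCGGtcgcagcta
Bdnf: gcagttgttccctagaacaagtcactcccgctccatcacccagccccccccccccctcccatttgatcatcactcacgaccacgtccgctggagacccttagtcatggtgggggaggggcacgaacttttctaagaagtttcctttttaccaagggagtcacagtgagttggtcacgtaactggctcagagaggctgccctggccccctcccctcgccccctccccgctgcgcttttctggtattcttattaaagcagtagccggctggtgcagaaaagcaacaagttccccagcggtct

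A total of 4 motifs was searched on both strands: the GC box GGGCGG, the EGR1 motif GCGNGGGCG, the cyclic AMP response element TGACGTCA and the E-box CACGTG. The GC box and the EGR1 motif share letters and can overlap. The Ntrk2 window held 1 GC box and none of the other motifs, and 35.7% of all 32851 windows of this length held a GC box. The printed Bdnf window held none of the 4 motifs, while the second and the fourth Bdnf window held 2 and 1 GC boxes. The Ngfr window held 4 GC boxes, and the first Ntf3 window held 1 GC box and 1 E-box, a motif present in 7.15% of all windows. No EGR1 motif (5.55% of all windows) or cyclic AMP response element (1.79%) lay in any window of the 4 genes. By base composition, G and C made up 61.3% of the Ntrk2 window, 71.7% of the Ngfr window and 57.3% of the printed Bdnf window, against a median of 52.7% over all windows. The 7 Bdnf windows ran from 38.7% to 58%, with 4 of them below that median.

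Among the receptors, Ntrk2 showed the largest difference of the 6 genes. Ntrk2 (ENSMUSG00000055254, chromosome 13, 58806569 to 59133970, plus strand, GRCm38) received 111, 63 and 144 reads from CTRL animals 157, 162 and 163, while KO animals 146, 147 and 148 gave 1780, 737 and 518. These counts correspond to 2.58, 1.65 and 3.25 CPM against 30.2, 17.8 and 11.4 CPM. All 3 KO-labelled libraries lay above all 3 CTRL-labelled ones, and the lowest of the KO-labelled ones, KO 148, was above the highest control by more than the whole spread of the controls. The means were 2.50 ± 0.80 and 19.8 ± 9.54 CPM (SD, n = 3 each), a ratio of 7.93 and a fitted log2 fold change of 2.98 (SE 0.42). By the sample labels, 0.0819% of all 17086 genes tested had a higher fold change.

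Of the 6 genes, edgeR called Ntrk2 alone at an adjusted p below 0.05, a rule that called 173 genes, 1.01% of those tested. The members were chosen with this contrast in view, so nothing is read from that count. The fold change without KO 146 was 2.53, and Ntrk2 was still called there and without KO 148 (3.25). Those fits called 17.2% and 18.3% of the genes they tested. Ntrk2 was no longer called without CTRL 157, CTRL 162, CTRL 163 or KO 147, with fold changes of 3.00, 2.76, 3.22 and 3.06. Each of those fits called only 0.0114% to 0.0569% of genes. The call was also lost with limma-voom (2.94, 0.72% of genes called) and with no filter on low counts (2.98, 2.72%). With the proximal tubule mean as a covariate the fold change was 1.71 and the call was lost, where 1.5% of genes were called. That mean did not overlap between the groups. The covariate fit therefore cannot tell the group difference from the difference in tubule markers, here or for the genes below.

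Ntrk3 values were higher as well in the KO-labelled libraries. Ntrk3 (ENSMUSG00000059146, chromosome 7, 78175959 to 78738012, minus strand) received 209, 160 and 210 reads from the 3 control animals in the same order, while KO 146, 147 and 148 gave 1727, 475 and 411. In CPM this was 4.86, 4.20 and 4.74 against 29.3, 11.5 and 9.04. The groups did not overlap, but KO 146 alone was more than double either of the other KO-labelled libraries. The fold change was 1.85 (SE 0.44) over all libraries, 1.15 without KO 146 and 0.14 with the proximal tubule covariate. Means were 4.60 ± 0.35 and 16.6 ± 11.0 CPM (SD, n = 3 each).

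Both Trk genes yield transcripts that the counts do not separate. GENCODE M21 lists 10 Ntrk2 transcripts, of which 7 are coding, with 466 to 821 codons, and 20 Ntrk3 transcripts, of which 6 are coding, with 82 to 864 codons. Short forms of TrkB and TrkC that lack the kinase domain are known, and gene counts do not tell them from the full-length kinases. The ratio of the 2 genes within a library needs no scaling between libraries. Ntrk2 reads divided by Ntrk3 reads, not scaled for length, were 0.53, 0.39 and 0.69 for CTRL 157, 162 and 163, while KO 146, 147 and 148 gave 1.03, 1.55 and 1.26. All 3 KO-labelled libraries thus had a higher ratio than all 3 CTRL-labelled ones. This ratio was not highest in KO 146, the library with the highest glomerular marker means. The part of cell content in the ratio was not tested.

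The p75 receptor gene Ngfr had few reads in every library. Ngfr (ENSMUSG00000000120, chromosome 11, 95568818 to 95587735, minus strand) had 34, 21 and 31 reads from the 3 control animals, while KO 146, 147 and 148 gave 46, 42 and 44. The levels were 0.790, 0.551 and 0.70 CPM against 0.779, 1.01 and 0.968 CPM, and KO 146 lay below CTRL 157. The fold change was 0.43 (SE 0.23), and 0.76 with the proximal tubule mean as a covariate. Schwann cells, the glia of peripheral nerves, are a known site of p75. Defining genes of that lineage were at or near 0, with 0 to 3 counts of Sox10 per library and 0 to 2 of Foxd3. Among 14 neuronal genes, Th and Dbh had 0 counts in every library, but 7 of the 14 passed the filter. Of those 7, 3 had positive fold changes, and the median was -0.03. The neuronal list summed to 348 to 1229 counts per library. Its gene Stmn2 had 53 to 715 counts, with 715 in KO 146, and a fold change of 1.84. Of 14 Schwann cell markers 8 passed the filter and 5 of those had positive fold changes. The median of those 8 was 0.62, with Scn7a at 2.78, Prx at 1.93, Pmp22 at 1.07 and Erbb3 at -0.51. The list mean was 2.02 to 2.23 log2 CPM in the CTRL-labelled libraries, while KO 146, 147 and 148 gave 3.14, 2.71 and 2.44, without overlap. Its summed level, of which Erbb3 was the larger part in the CTRL-labelled libraries, was 97.6 to 125 CPM against 106 to 130 CPM. The part of these markers in the Ngfr value was not tested.

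**Figure D1:**
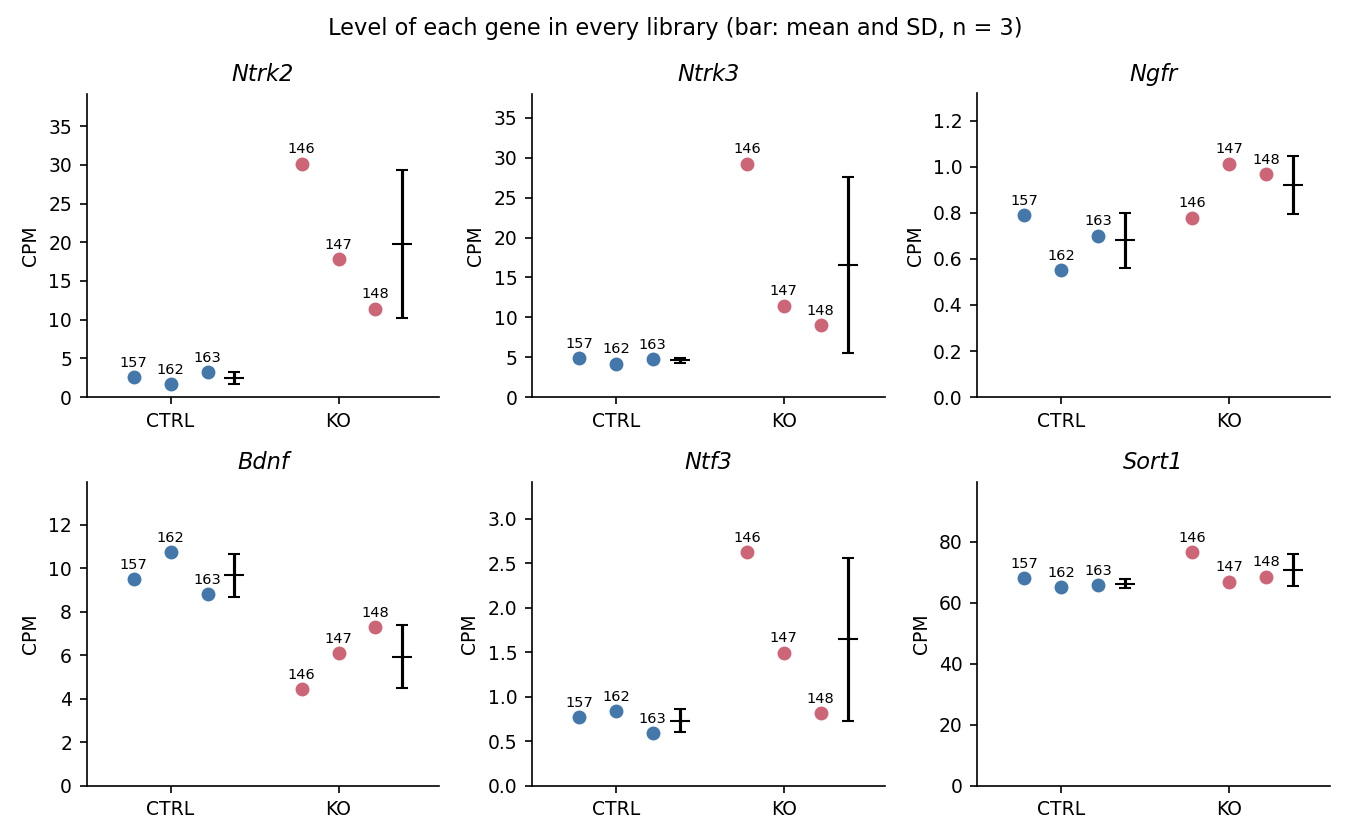
Level of each of the 6 genes in CPM (vertical axis, from 0) in the 3 CTRL-labelled and 3 KO-labelled libraries, with animal numbers beside the points and the mean and SD of each group as a bar. Ntrk2 and Ntrk3 are higher and Bdnf lower in all 3 KO-labelled libraries, while the groups of Ngfr, Ntf3 and Sort1 overlap.

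The ligand Bdnf had the opposite pattern to its receptor. Bdnf (ENSMUSG00000048482, chromosome 2, 109674700 to 109727007, plus strand) had 408, 409 and 390 reads from the 3 control animals, while KO 146, 147 and 148 gave 261, 252 and 331. Levels were 9.48, 10.7 and 8.81 CPM against 4.42, 6.08 and 7.28 CPM, without overlap, and KO 146 was the lowest. Group means were 9.68 ± 0.98 and 5.93 ± 1.44 CPM (SD, n = 3 each), a fold change of -0.71 (SE 0.20). Without KO 146 it was -0.54, and with the proximal tubule covariate -0.12. Proximal tubule markers had a median fold change of -0.54, with 24 of 30 above Bdnf, and 20 of 20 distal nephron markers were above it. Bdnf exons share 896 bases with the antisense gene Gm45346, and without a known strand setting reads there cannot be assigned to 1 of them.

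Ntf3, the ligand of TrkC, had few reads and was highest in KO 146. Ntf3 (ENSMUSG00000049107, chromosome 6, 126101412 to 126166910, minus strand) had 33, 32 and 26 reads from the 3 control animals, while KO 146, 147 and 148 gave 155, 62 and 37. The levels were 0.767, 0.840 and 0.587 CPM against 2.63, 1.5 and 0.814 CPM, so that KO 148 lay within the range of the controls. The fold change was 1.18 (SE 0.44), 0.65 without KO 146, and -0.28 with the proximal tubule covariate, where its sign turned. The ratio of Bdnf to Ntf3 reads, not scaled for length, was 12.4, 12.8 and 15.0 for CTRL 157, 162 and 163, while KO 146, 147 and 148 gave 1.68, 4.06 and 8.95.

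Sort1 differed least. Sort1 (ENSMUSG00000068747, chromosome 3, 108284082 to 108361511, plus strand) had 2923, 2475 and 2909 reads from the 3 control animals, while KO 146, 147 and 148 gave 4519, 2768 and 3115. Its levels were 67.9, 65.0 and 65.7 CPM against 76.6, 66.8 and 68.5 CPM, with KO 147 below CTRL 157. The fold change was 0.09 (SE 0.08), and -0.06 with the proximal tubule covariate. Its exons share 338 bases with the antisense gene Gm12523. Over the 3 genes Ntrk2, Ntrk3 and Bdnf the groups did not overlap, which held for 41.5% of all tested genes. The median fold change of the 6 genes was 0.80, with 5 positive, beside -0.006 over all tested genes, and nothing is read from either.

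Levels of different genes were compared per kilobase of annotated exon. In the CTRL-labelled libraries the order was Sort1 at 8.75 ± 0.20, Bdnf at 1.56 ± 0.16, Ntf3 at 0.427 ± 0.076, Ngfr at 0.198 ± 0.035, Ntrk3 at 0.152 ± 0.012 and Ntrk2 at 0.129 ± 0.042 CPM per kb (SD, n = 3 each). The ranges of Ngfr and Ntrk3 overlapped, as did those of Ntrk3 and Ntrk2, so group ranges alone do not set the order of these receptors. Within each CTRL-labelled library Ngfr ranked above both Trk genes, while Ntrk2 ranked above Ntrk3 in CTRL 163 only. In the KO-labelled libraries, Sort1 was again first at 9.33 ± 0.69 CPM per kb. Ntrk2 (1.03 ± 0.49), Ntf3 (0.960 ± 0.53) and Bdnf (0.954 ± 0.23) followed with overlapping ranges, then Ntrk3 (0.550 ± 0.37) and Ngfr (0.267 ± 0.036). Sort1 ranked first in all 6 libraries and Bdnf second in all but KO 146, where 4 genes ranked above it. The exon length is that of all annotated exons of a gene together, 30.17 kb for Ntrk3 and 19.292 kb for Ntrk2, so a gene that uses few of its exons has a higher level per transcript than this scale shows.

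**Figure D2:**
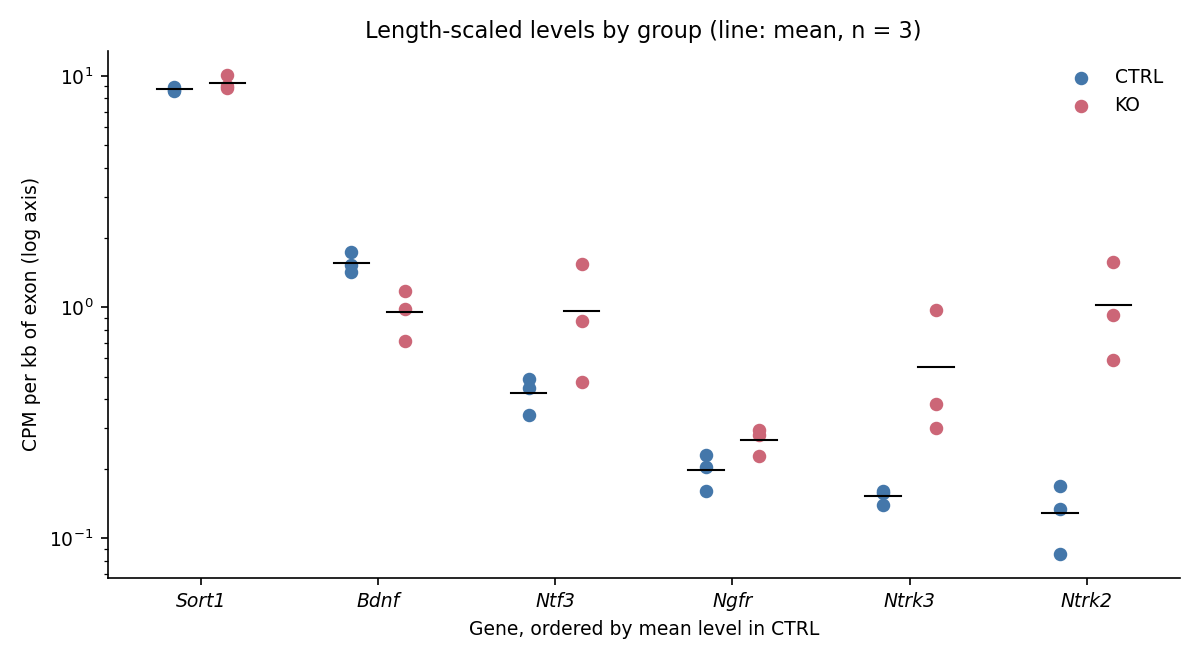
Length-scaled level in CPM per kb of exon (log axis) of each gene in each library, with the group mean as a line. Sort1 lies near 9 in both groups, and Ntrk2 moves from the lowest mean in the CTRL-labelled libraries to the second highest in the KO-labelled ones.

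The 6 genes were next set against the markers of glomerular cells. Of 68 podocyte, endothelial, mesangial and smooth muscle markers, 0 had a fold change above that of Ntrk2, and 35 were above Ntrk3. The fit without KO 146, which shares all other libraries, gave the same counts, 0 and 35. Ntrk2 was chosen with its difference in view, so nothing is read from its count. The 26 podocyte markers had fold changes from 0.22 to 2.64 with a median of 2.05, the 22 endothelial markers a median of 1.74 with 21 positive and Lpl at -0.53, and the 20 mesangial and smooth muscle markers a median of 1.89. Ntrk3, at 1.85, thus lay within the range of each of these lists, while 57 markers were above Ntf3, 66 above Ngfr, 67 above Sort1 and 68 above Bdnf.

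Subtracting the mean of the 3 glomerular lists from each gene's log2 CPM gave a level relative to glomerular RNA. For Ntrk2 it was -3.39, -4.05 and -3.19 for CTRL 157, 162 and 163, while KO 146, 147 and 148 gave -2.43, -1.99 and -2.10. The groups did not overlap on this scale, and the difference was 1.37, with 1.25, 1.49 and 1.37 against the podocyte, the endothelial and the mesangial list alone. For Ntrk3 it was -2.62 ± 0.12 and -2.51 ± 0.10 (SD, n = 3 each), a difference of 0.11 that was as small as the spread between libraries. Against the podocyte, the endothelial and the mesangial list alone the Ntrk3 difference was -0.01, 0.23 and 0.12. The largest of these, against the endothelial list, came from -2.94 ± 0.18 and -2.70 ± 0.16 (SD, n = 3 each), with overlapping groups.

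On this relative scale Bdnf, Sort1, Ngfr and Ntf3 all had lower means in KO-labelled libraries. The subtracted list means were higher in those libraries, so a gene with a smaller fold change than the lists comes out lower. Before subtraction the fold changes were 0.09 for Sort1, 0.43 for Ngfr, 1.18 for Ntf3 and -0.71 for Bdnf. A lower relative level is therefore not a lower level of the gene itself. For Bdnf the relative level was -1.53, -1.38 and -1.76 for CTRL 157, 162 and 163, while KO 146, 147 and 148 gave -5.18, -3.53 and -2.74. Sort1 went from 1.22 ± 0.09 to -0.23 ± 0.80 and Ngfr from -5.31 ± 0.26 to -6.43 ± 1.06 (SD, n = 3 each), with KO 146 lowest for both. Ntf3 had -5.21 ± 0.31 and -5.76 ± 0.21, and its groups overlapped. Counts of Ntrk3 per count of Nphs1, which encodes nephrin of the podocyte slit diaphragm, were 0.0899 ± 0.0071 and 0.0659 ± 0.0087, and those of Ntrk2 per count of Nphs1 were 0.0477 ± 0.0099 and 0.0843 ± 0.019. The 2 Trk genes therefore lay on opposite sides of Nphs1, Ntrk2 with a larger and Ntrk3 with a smaller group difference.

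**Figure D3:**
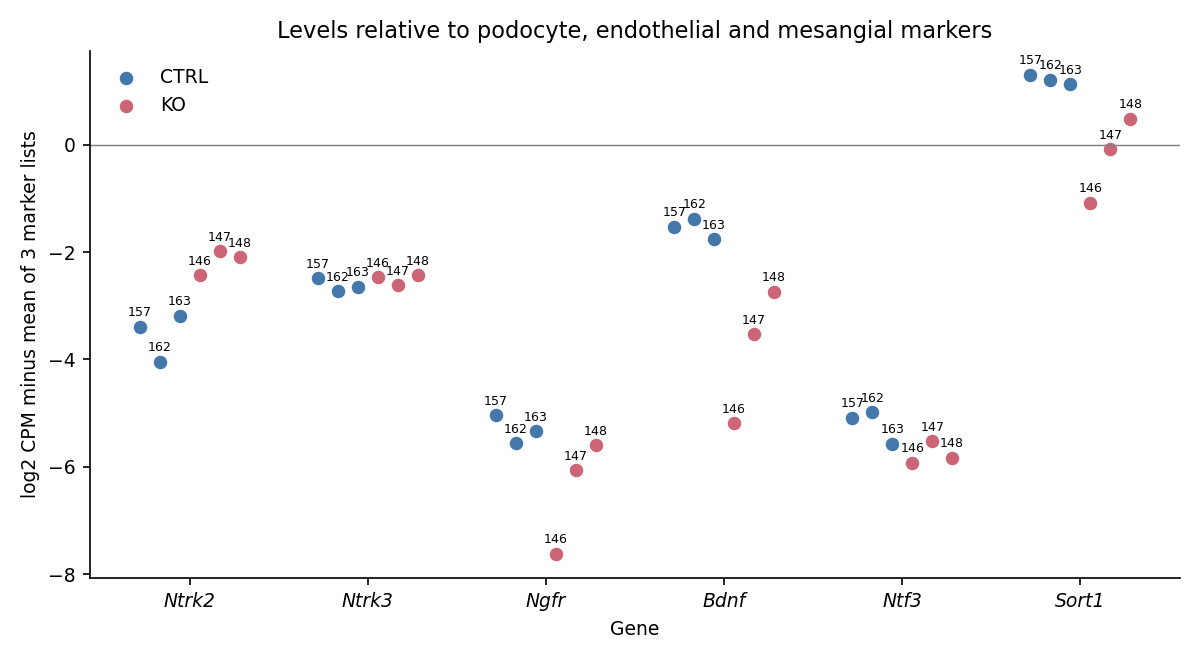
Level of each gene in log2 CPM minus the mean of the podocyte, endothelial and mesangial marker lists (vertical axis), with 1 point per library and animal numbers above. Ntrk3 lies between -2.72 and -2.43 in all 6 libraries, Ntrk2 is higher and Bdnf lower in the KO-labelled libraries.

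Genes with the pattern most like each member were listed by Pearson r of log2 CPM over the 6 libraries, among 11122 genes averaging 5 CPM or more. These values are descriptions, since all genes share the same libraries, their cell content and their group difference. For Ntrk2 they were Ccdc80, a secreted matrix protein (0.998), Mcm5, a subunit of the replicative helicase (0.996), Mfsd10 (0.996), the fibrillar collagen gene Col5a1 (0.994) and the tubulin gene Tuba1b (0.994). Mcm5 is one of the 24 cell cycle genes given above. For Ntrk3, Scarf2 and Wrnip1 were among the 3 most similar (0.999 each). Bdnf was most like Lpgat1, Fmo2 and Errfi1 (0.998 each), whose fold changes were -0.36, -0.56 and -0.78. Ntf3 was most like Irf1, Tnip2 and Eml2 (0.995 to 0.996), Sort1 like Dip2a, Patl1 and Cap1 (0.996 to 0.998), and Ngfr like Slc25a22, Prkd1 and Irgm1 (0.949 to 0.980).

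The other 70 genes of the neurotrophin pathway comprised the remaining ligands and receptors, adaptors of Trk and p75 receptors, proteases that process neurotrophins, and response genes of Trk signalling. Of these, 63 passed the filter and 39 had a positive fold change, with a median of 0.12 beside -0.006 over all tested genes. edgeR called 0 higher and 0 lower, against 0.591% and 0.421% of the whole table. The unadjusted p was below 0.05 for 14 higher and 8 lower of the 63 genes, beside 17.5% higher and 11.8% lower of all tested genes, and nothing is read from these counts. DESeq2 called 9 higher and 3 lower where it called 16.6% of all genes, and limma-voom called 0. Without KO 146 edgeR called 12 higher and 3 lower, against 17.2% of all genes, and without KO 148 11 and 3, against 18.3%. It called 0 when CTRL 157, CTRL 162, CTRL 163 or KO 147 was left out.

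Of the remaining ligands, Ntf5, which encodes neurotrophin-4, another ligand of TrkB, had 39, 33 and 28 reads from the 3 control animals, while KO 146, 147 and 148 gave 54, 44 and 33. Its level was 0.802 ± 0.15 and 0.901 ± 0.17 CPM (SD, n = 3 each), and the groups overlapped. The fold change was 0.17 (SE 0.25, edgeR adjusted p = 0.676).

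The 6 pathway genes with the smallest p were 3 proteases and 3 response genes. Among the proteases, Mmp2, a gelatinase, had a fold change of 2.44 (SE 0.43, edgeR adjusted p = 0.0614) and Plat, tissue plasminogen activator, of 2.19 (SE 0.47, edgeR adjusted p = 0.0753). Plat also marks glomerular endothelium and is one of the 22 endothelial markers. Plg, plasminogen, was at 0.136 to 0.429 CPM in all libraries, with a fold change of -1.19. Furin, which cleaves proneurotrophins, had 224 ± 6.86 and 191 ± 16.5 CPM (SD, n = 3 each), with all KO-labelled libraries below all CTRL-labelled ones and an edgeR adjusted p = 0.171.

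Feedback regulators of receptor tyrosine kinase signalling had values in both directions. Dusp4 and Dusp6, phosphatases of the MAP kinases, had fold changes of -0.52 (SE 0.11, edgeR adjusted p = 0.0753) and -0.48 (SE 0.12, edgeR adjusted p = 0.0760). Spry4, a Sprouty inhibitor of the same cascade, stood at 1.49 (SE 0.33, edgeR adjusted p = 0.0755). In all 3 genes the groups did not overlap, as in 41.5% of all tested genes. Of 13 response genes tested, 7 had a positive fold change, 4 were higher and 3 lower at an unadjusted p below 0.05, and 0 were called by edgeR. The 19 adaptors tested had a median fold change of 0.20, with 5 higher and 2 lower at that unadjusted p. Both sets of counts stand beside the 17.5% higher and 11.8% lower of all tested genes.

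**Figure D4:**
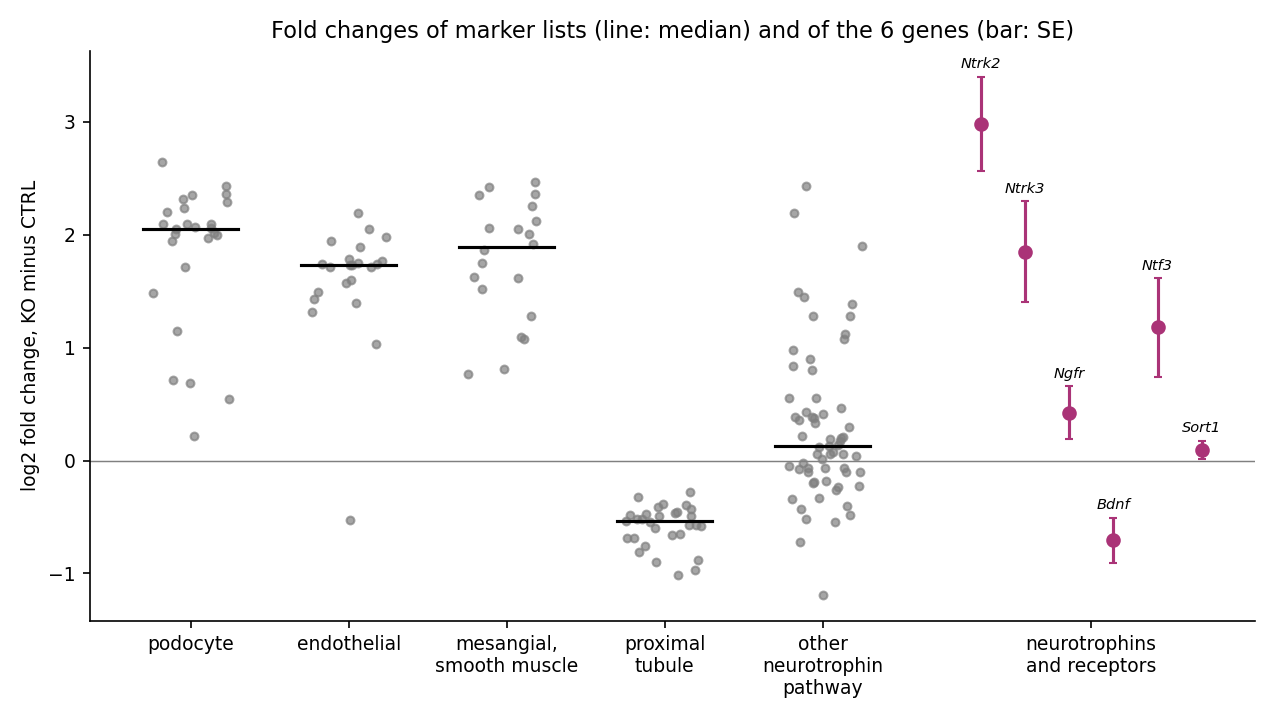
Log2 fold change, KO minus CTRL by the sample labels, of each tested marker or pathway gene (grey points, with the median of each list as a line) and of the 6 genes (points with SE bars). Ntrk2 at 2.98 lies above every plotted marker, Ntrk3 lies among the glomerular markers, and Bdnf lies among the proximal tubule markers.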

How the data were processed

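The authors deposited unnormalized integer counts of reads for each gene, in 1 file per library. The submitters' processing notes name HTSeq 0.11.1, STAR 2.6.0, fastp 0.19.5 and DESeq2 without saying which step each served. The notes list GRCh37, a human build, while the identifiers are mouse Ensembl ones, so the build is uncertain. The sources used here do not give the strand setting. A set of 5 closing lines per file names no gene (reads in no feature, 2.57% to 3.41%; ambiguous, 1.55% to 1.79%; low quality, 0.13% to 0.15%; unaligned, 0.7% to 1.22%; aligned to several places, 22.51% to 29.63% of records) and was left out. Symbols, exon lengths and positions came from GENCODE M21 (GRCm38), which named 54809 of 54838 identifiers.

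Counts were tested in R 4.3.3 with edgeR 4.0.16 (TMM, filterByExpr with a minimum count of 10, robust quasi-likelihood F test of KO against CTRL on all 6 libraries, Benjamini-Hochberg adjustment over all tested genes, called below 0.05). Fold changes are log2, KO minus CTRL. The SE is the absolute fold change over the root of the F statistic, and log2 CPM used a prior count of 2. The code was tested on simulated counts. Alternatives were DESeq2 1.42.0, limma-voom (limma 3.58.1), other scalings, no filter, a proximal tubule covariate, and leaving out each library. Replicates differed by more than sampling noise (chi-square per degree of freedom of 16.7 or more). The members and gene lists were chosen with earlier results of these data known. The 6 members were always named, as were Ntf5, Plat and Furin, with called pathway genes or, failing 6, those of smallest p, and the 5 (Ntrk2) or 3 genes of most similar pattern. Some genes that this rule names are not reported here.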

Additional observations from a re-analysis of the deposited data

How the results depend on the processing

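All 6 genes kept the sign of their fold change under every alternative tried, apart from the proximal tubule covariate. With it Ntf3 and Sort1 turned to -0.28 and -0.064. The covariate did not overlap between the groups, so that fit cannot tell the group difference from the difference in tubule markers. The number of genes called was 173 in the full fit (1.01%), 960 with no filter on low counts (2.72%) and 2874 with DESeq2 (16.6%). Leaving out 1 library gave 2 to 3211 calls, 0.0114% to 18.3% of genes tested. Of the 6 genes, 0 to 4 were called there. They were Ntrk2, Ntrk3 and Bdnf without KO 146 (17.2% of all genes called) and Ntf3 too without KO 148 (18.3%). Pathway genes called were 0 to 12 higher and 0 to 3 lower. Of the 6 genes, DESeq2 called 3 (Ntrk2, Ntrk3 and Bdnf). In limma-voom and the covariate fit 0 were called, beside 0.72% and 1.5% of all genes. Nothing is read from these counts of the 6 genes. DESeq2 called 9 pathway genes higher and 3 lower, and with no filter 1 was lower. The Ntrk2 fold change was 2.53 to 3.25 with 1 library left out, 2.98 with no filter (not called, while Bdnf was), 2.94 with limma-voom and 1.71 with the covariate. Scaling by library totals gave a median fold change over all genes of 0.132 in place of -0.006, and 69.5% in place of 58.4% of calls were higher, with Ntrk2 at 3.16, Bdnf at -0.59 and Sort1 at 0.24. Ngfr and Ntf3 rest on 21 to 155 counts per library, which limits both. Ntrk2 had 63 to 144 counts in the CTRL-labelled libraries, so its ratio rests on a low control level. No paired analysis was made, since each animal is in 1 group and the sample labels name no pairs.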
